A study of Mus musculus with 11 samples.

Results

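Akr1c and Akr1b genes encode aldo-keto reductases, and 10 of them were followed here in the adrenal gland of castrated and intact mice. The 10 genes were chosen by their family. From a cluster on chromosome 13 came 6 Akr1c genes: Akr1c12, Akr1c13, Akr1c14, Akr1c19, Akr1c20 and Akr1c21. With them came the related Akr1cl on chromosome 1 and 3 Akr1b genes of chromosome 6, Akr1b3, Akr1b7 and Akr1b8. The X-zone gene Akr1c18 and Akr1c6 on chromosome 13, and Akr1b10 on chromosome 6, were not among the 10 and are given as relatives. The members were 10 of the 23337 gene symbols in the count table. All 10 were in the table, 5 passed the filter on low counts and were tested, and the other 5 are given as counts. RNA sequencing gave the expression of each gene in 6 ORX and 5 Intact samples of the whole adrenal gland. All mice were males of the strain Hsd:Athymic Nude-Foxn1nu and had been inoculated with VCaP, an established line of human prostate cancer cells, at study week 0 and an age of 5 to 6 weeks. ORX is the usual abbreviation of orchiectomy, the removal of the testes, and the labels do not spell it out. Mice were placed in the ORX and Intact groups at week 7 and their adrenals were taken at week 15, so that testicular hormones and any difference in tumour growth between the groups cannot be told apart. Athymic nude mice lack a thymus and most T cells.

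Aldo-keto reductases use NADPH or NADH to reduce aldehydes and ketones to alcohols. Akr1c enzymes act mainly on steroids and prostaglandins, adding or removing hydrogen at the keto groups that decide whether a steroid binds its receptor. Akr1b enzymes act on sugars and aldehydes: Akr1b3 is aldose reductase, the first enzyme of the polyol pathway, and Akr1b7, known in the adrenal cortex as a gene induced by ACTH and in the vas deferens as an androgen-dependent one, clears the aldehyde released when cholesterol is cleaved to pregnenolone and also makes prostaglandin F2α.

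The sequences that set these genes apart are shown first. Akr1c12 and Akr1c13 are close copies, with 96.2% identity over 972 coding bases (37 mismatches, GENCODE M21), so that reads can fall on either gene. A window of 60 bases, coding bases 343 to 402 counted from the start codon, holds 9 of the mismatches, given in capitals:
Akr1c13: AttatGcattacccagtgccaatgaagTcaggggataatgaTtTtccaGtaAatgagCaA
Akr1c12: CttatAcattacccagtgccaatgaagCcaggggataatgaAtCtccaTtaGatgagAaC
The 250 bases before the start of the gene (RefSeq, GRCm38.p6) were at hand for 8 of the 10 genes and are printed for the copy pair and for the 2 genes with the highest levels. GENCODE places the starts of Akr1c12, Akr1c13 and Akr1b7 inside these windows, so their last bases may be transcribed. Capitals mark matches to 1 of 4 motifs searched on both strands: AGGTCA, the half-site of nuclear receptors such as NR5A1, TGACGTCA, the cAMP response element, TGACNNNGC, the core of the antioxidant response element, and AGAACA, the half-site of the androgen and glucocorticoid receptors. No match printed here overlaps another, but TGACGTCA and TGACNNNGC begin with the same 4 letters.
Akr1c13, chr13:4190937-4191186, plus strand: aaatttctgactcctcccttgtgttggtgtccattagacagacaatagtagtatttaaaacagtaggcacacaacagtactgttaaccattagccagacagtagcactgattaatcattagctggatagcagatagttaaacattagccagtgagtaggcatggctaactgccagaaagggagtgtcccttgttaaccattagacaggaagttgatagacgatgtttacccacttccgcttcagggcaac
Akr1c12, chr13:4279400-4279649, minus strand: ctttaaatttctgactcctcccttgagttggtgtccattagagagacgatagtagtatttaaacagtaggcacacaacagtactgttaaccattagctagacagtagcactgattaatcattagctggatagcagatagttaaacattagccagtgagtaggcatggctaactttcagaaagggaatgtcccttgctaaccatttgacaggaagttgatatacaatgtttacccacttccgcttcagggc
Akr1cl, chr1:65032760-65033009, minus strand: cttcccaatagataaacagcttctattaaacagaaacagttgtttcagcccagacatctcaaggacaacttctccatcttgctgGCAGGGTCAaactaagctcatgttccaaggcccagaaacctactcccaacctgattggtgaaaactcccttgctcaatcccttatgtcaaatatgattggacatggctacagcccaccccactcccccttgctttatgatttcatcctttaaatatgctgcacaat
Akr1b7, chr6:34412112-34412361, plus strand: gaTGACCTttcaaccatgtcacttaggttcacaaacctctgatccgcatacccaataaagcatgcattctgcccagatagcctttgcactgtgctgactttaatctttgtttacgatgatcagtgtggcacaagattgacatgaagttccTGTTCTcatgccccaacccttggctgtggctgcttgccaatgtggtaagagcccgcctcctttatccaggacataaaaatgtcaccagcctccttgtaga
The promoters of Akr1c13 and Akr1c12 were 92.5% identical and held none of the 4 motifs in these windows. Akr1b7 held TGACCT, the reverse complement of the NR5A1 half-site, 248 bases before the start, and TGTTCT, the reverse complement of the androgen and glucocorticoid half-site, 100 bases before it. Akr1cl held the reverse complement of the antioxidant core 166 bases before its start, and Akr1c14, Akr1c19, Akr1c21 and Akr1b8 held none. Of 32851 promoters of the same length, 14% held AGGTCA, 1.55% TGACGTCA, 10.2% TGACNNNGC and 16.1% AGAACA, and a match is a description, not a binding site.

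Libraries held 12539860 to 14725251 counts in ORX and 11368447 to 15029582 in Intact samples. Levels are in CPM, counts scaled to a common total after TMM, a correction for differences in RNA composition, and fold changes are ORX over Intact on a log2 scale, tested with edgeR's quasi-likelihood test over 14139 genes with Benjamini-Hochberg adjustment. ORX 6 stood apart in rank order, with a median Spearman correlation of 0.933 to the other ORX samples, against 0.965 to 0.974 for the other ORX samples. The glands carried their defining cortical markers, with Star, the cholesterol carrier of steroid synthesis, at 17431 to 27903 CPM in ORX and 9729 to 27748 CPM in Intact samples. Fat was present in both groups, as the 8 adipose markers summed to 2747 to 12916 CPM in ORX and 4455 to 11704 CPM in Intact samples, and 0 of the 8 passed the test (2 were lower without ORX 3).

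In glands of castrated mice 2 of the 5 tested genes, Akr1c13 and Akr1cl, rose by about the same factor, 3.27-fold and 3.05-fold, none fell past the threshold, and 3 (Akr1b7, Akr1b8 and Akr1c14) did not pass. Over all tested genes 6.21% passed the threshold, with 3.03% of all genes higher and 3.18% lower in ORX. The largest fitted difference among the 10 genes, that of Akr1b7, was lower in ORX but did not pass the threshold, and its level ranged widely within each group. The levels of whole glands cannot tell fewer cells of a type from less RNA per cell.

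**Figure D1:**
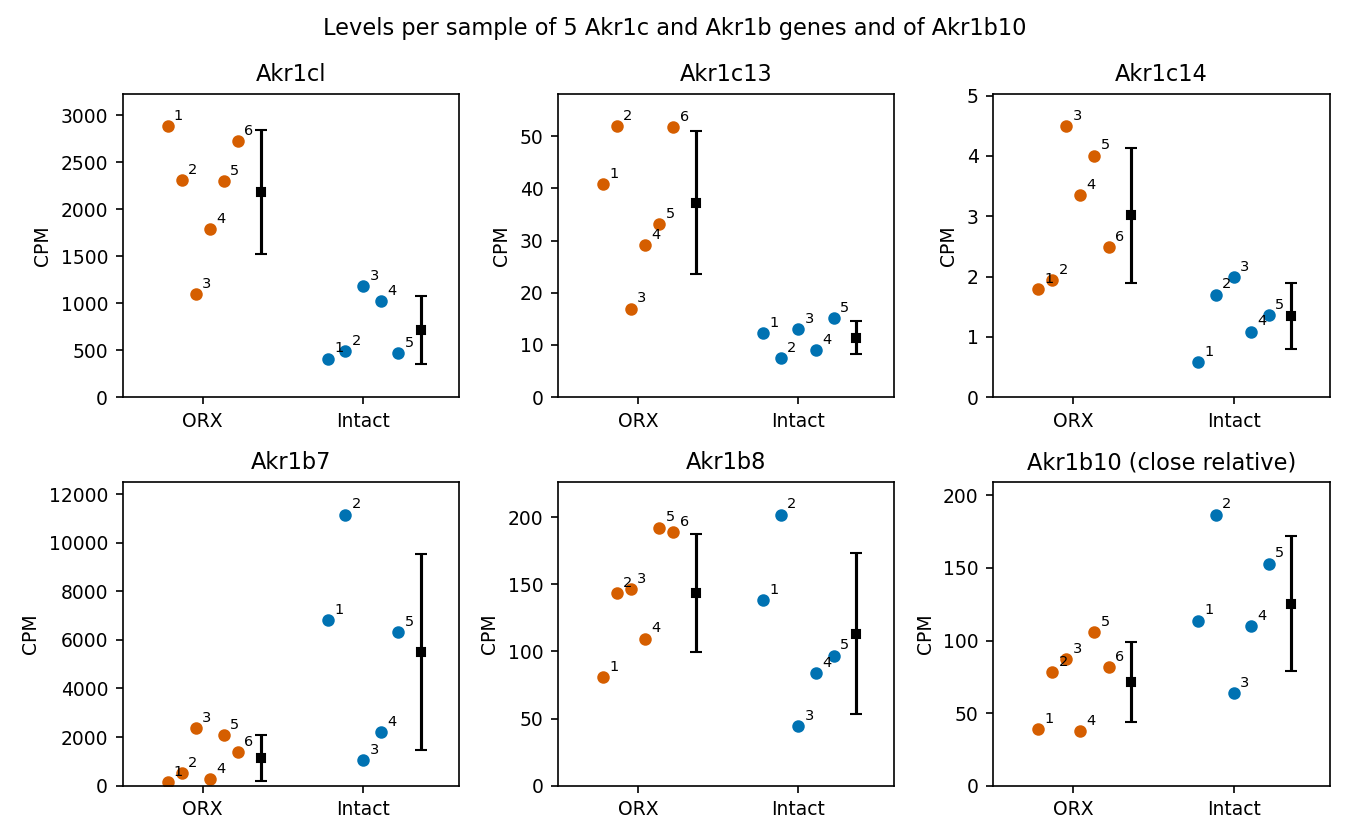
Level in CPM (vertical axes, linear, each from 0) of Akr1cl, Akr1c13, Akr1c14, Akr1b7, Akr1b8 and the relative Akr1b10 in each ORX (orange, n = 6) and Intact (blue, n = 5) sample, with sample numbers beside the points and the mean ± SD as a black square with bars. All 6 ORX samples lie above the 5 Intact samples for Akr1c13, while Akr1b7 is highest in Intact 1, 2 and 5 and overlaps elsewhere.

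Akr1b7 was measured in ORX samples 1 to 6 at 152, 525, 2362, 266, 2078 and 1379 CPM, against 6819, 11156, 1046, 2192 and 6313 CPM in Intact samples 1 to 5. Intact 1, 2 and 5 lay above every ORX sample, whereas Intact 3 and 4 lay within the ORX range, below ORX 3. Means were 1127 ± 954 CPM in ORX and 5505 ± 4037 CPM in Intact samples (SD, n = 6 and 5). The gene was 4.88-fold lower in ORX, or -2.29 ± 0.72 on the log2 scale (SE), which did not pass the threshold (edgeR adjusted p = 0.0762). Without ORX 3 the log2 fold change was -2.65 (edgeR adjusted p = 0.0487) and without Intact 3 it was -2.57 (edgeR adjusted p = 0.0419), so 1 sample of either group decides the call. Akr1b7 took 0.0160% of all counts in the lowest library and 1.06% in the highest. The highest sample exceeded the lowest 15.5-fold within ORX and 10.7-fold within Intact. The SD of its log2 CPM within groups, 1.53, was above that of 99.5% of 13727 genes with a mean of at least 1 CPM, whose median was 0.36. The gene lies on chromosome 6 (GRCm38, 34412334 to 34423142, plus strand) and its exons overlap the predicted gene Gm13857 on the opposite strand, which was not analysed here, and reads of that gene cannot be told apart unless counting used strand.

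To set Akr1b7 against the steroid-making cells, its level was divided by that of Cyp11a1, the side-chain cleavage enzyme that makes its aldehyde substrate. The log2 ratio was -4.86, -3.03, -1.21, -3.72, -1.79 and -2.89 in ORX samples 1 to 6, against -0.43, -0.25, -2.27, -1.41 and -0.65 in Intact samples 1 to 5. The mean was -2.92 ± 1.31 in ORX and -1.001 ± 0.83 in Intact samples (SD), a difference of -1.92 (exact permutation test over 462 assignments, two-sided, p = 0.0216; the smallest p possible is 0.00433). The groups overlapped, with ORX 3 and 5 above Intact 3 and ORX 3 also above Intact 4. Set against the mean log2 CPM of the 10 cortex markers, each weighted alike, the log2 difference was -2.73 (exact permutation p = 0.00866). These permutation p-values are not adjusted for other tests, unlike the edgeR adjusted p of Akr1b7. The unadjusted edgeR p of Akr1b7 alone was 0.00698. Of the 10 cortex markers 3 (Cyp21a1, Hsd3b1 and Mc2r) rose and 0 fell. The count of 3 was 2 without ORX 2, without ORX 5 or with the replicate block, and 0 with the medulla marker score as a covariate. The summed level of the 10 cortex markers was 62555 to 95766 CPM in ORX and 35646 to 80085 CPM in Intact samples. Of 12 medulla markers 0 rose and 2 (Slc18a2 and Npy) fell, and none was at 0. This count was 1 without ORX 1, 2, 4 or 5 or Intact 1, 2 or 5, but 5 without ORX 3 and 4 without Intact 3. Their summed level was 6467 to 16813 CPM in ORX and 12052 to 30698 CPM in Intact samples. With the medulla marker score as a covariate the log2 fold change of Akr1b7 was -0.06 (edgeR adjusted p = 0.984), and the part of medullary tissue in the result was not tested further. Of 7 zona glomerulosa markers 4 (Hsd3b6, Kcnk9, Agtr1a and Shh) fell, with a summed level of 998 to 1347 CPM in ORX and 906 to 2397 CPM in Intact samples. That count was 2 without ORX 1, 2 or 4 or Intact 1 or 5, and 0 with the medulla score in the model.

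Akr1b8, a growth-factor-inducible aldehyde reductase, was measured at 80.7, 143, 146, 110, 192 and 189 CPM in ORX samples 1 to 6, against 138, 202, 44.6, 83.8 and 96.9 CPM in Intact samples 1 to 5. The groups overlapped over most of their range, with Intact 2 the highest of all and Intact 3 the lowest. The log2 fold change was 0.34 ± 0.33 (edgeR adjusted p = 0.572). It was 1.35 when the medulla score was added to the model (edgeR adjusted p = 0.159) and 0.04 without Intact 3 and ORX 6 together, and it did not pass in either.

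Akr1b7 and Akr1b8 mostly went up and down together from gland to gland within the groups, with deviations of opposite sign in ORX 2 and Intact 5. Their fitted group differences had opposite signs, but neither passed the threshold. Over the 11 libraries, after the group means were taken off, the Pearson r of their log2 CPM was 0.87, as a description of samples that share library and depth for both genes. Akr1b10, the nearest relative of Akr1b7 by coding sequence (89.3% identical, against 84.9% for Akr1b8), gave an r of 0.92 with it. Akr1cl tended the other way, with an r of -0.65 to Akr1b7, but in ORX 4, 5 and 6 the deviations of these genes had the same sign. The 5 genes with the highest r to Akr1b7 among 13727 were Rars (0.96), Psmd7 (0.95), Pofut2 (0.94), 2610029G23Rik (0.94) and Hnrnpc (0.93), and none of these 5 passed the test between groups. Of genes chosen after values were seen, the NRF2 target Srxn1 gave an r of 0.92, the cAMP-induced repressor gene Crem 0.92, Cyp11a1 0.81, Star 0.58 and the ACTH receptor Mc2r 0.31.

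**Figure D2:**
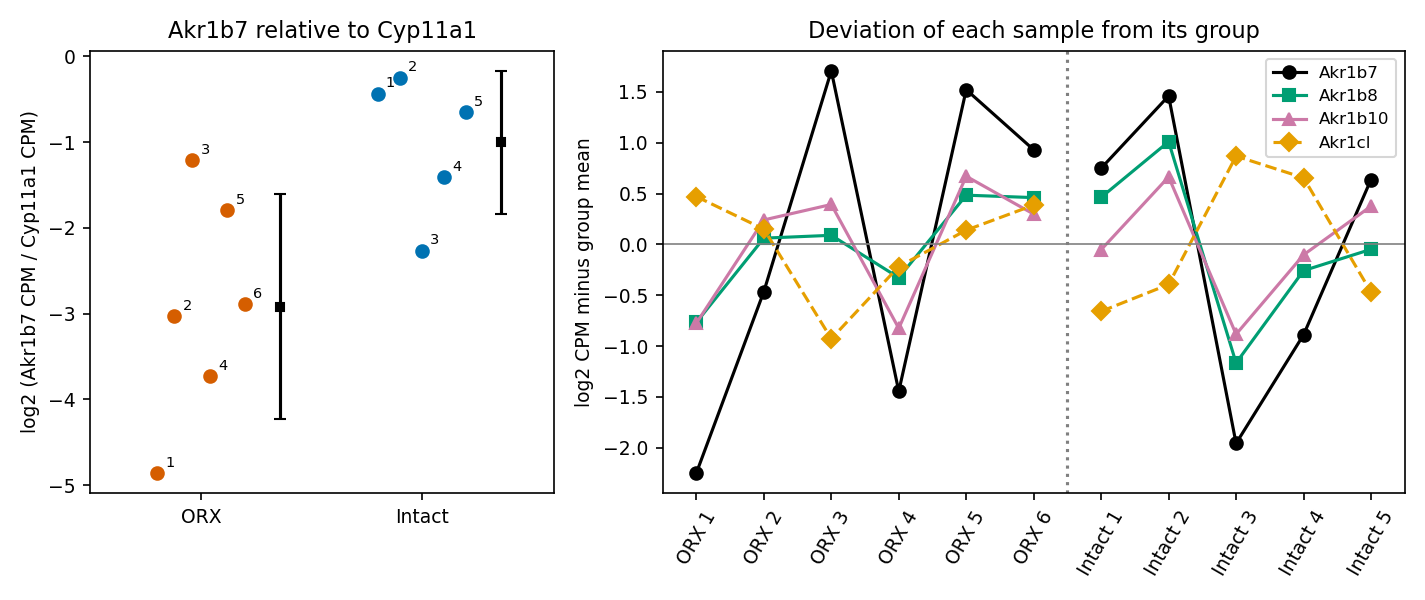
Left, log2 ratio of Akr1b7 to Cyp11a1 in each ORX (orange, n = 6) and Intact (blue, n = 5) sample, with the mean ± SD as a black square; ORX samples average -2.92 and Intact samples -1.001. Right, deviation of log2 CPM from the group mean in each sample for Akr1b7, Akr1b8, Akr1b10 and Akr1cl; the 3 Akr1b genes are low together in ORX 1, ORX 4 and Intact 3, where Akr1cl is raised in ORX 1 and Intact 3.

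Akr1b3, aldose reductase, was listed at 0 in all 11 libraries. At these depths a count of 0 allows up to 3 counts, or 0.195 to 0.240 CPM in ORX and 0.199 to 0.255 CPM in Intact samples, for counting error only. The gene (chromosome 6, 34302434 to 34317478, minus strand) shares 13.6% of its 50-base transcript stretches with 119 other annotated genes, among them pseudogene copies, of which Gm6644 was also listed at 0. The remaining 86.4% of its stretches occur in no other annotated gene. How the authors counted reads with several matches is not given in the sources used here, and whether the gene is expressed was not tested.

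Akr1c13, an enzyme of the Akr1c cluster (chromosome 13, 4191150 to 4205596, plus strand), was measured at 40.8, 51.9, 16.95, 29.1, 33.1 and 51.7 CPM in ORX samples 1 to 6, against 12.2, 7.48, 13.05, 8.95 and 15.2 CPM in Intact samples 1 to 5. Every ORX sample lay above every Intact sample, with ORX 3 nearest to the Intact group. Over all tested genes 5.28% showed no overlap in either direction, and of the 5 tested members Akr1c13 alone did. Means were 37.2 ± 13.6 CPM in ORX and 11.4 ± 3.12 CPM in Intact samples (SD), a log2 fold change of 1.71 ± 0.29 (SE; edgeR adjusted p = 0.00405), which held without each sample in turn (1.58 to 1.86). With the medulla score in the model it was 1.57 and no longer passed (edgeR adjusted p = 0.116).

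Its near copy Akr1c12 had 9, 9, 8, 3, 1 and 8 counts in ORX samples 1 to 6, against 4, 1, 7, 3 and 2 in Intact samples 1 to 5, and was below the filter. Akr1c12 took 1.37 ± 1.07% of the counts of the pair in ORX and 2.12 ± 1.05% in Intact samples (SD), a difference of -0.75 percentage points (exact permutation test, two-sided, p = 0.273). The 2 genes share 24.2% of the 50-base stretches of Akr1c13 and 28.6% of those of Akr1c12 (9.36% and 11.5% at 100 bases), so a part of these few counts may belong to the other gene. Summed to a single feature, the pair gave a log2 fold change of 1.69 (edgeR adjusted p = 0.00405). Akr1c13 shared no 50-base stretch with Akr1c18, the progesterone-inactivating X-zone gene of the same cluster, which averaged 1385 CPM in ORX and 2.66 CPM in Intact samples. For each 100 counts of Akr1c18 the ORX samples 1 to 6 held 1.71, 4.10, 2.27, 1.72, 2.36 and 6.29 counts of Akr1c13, as a description. The 3 X-zone markers all rose, with summed levels of 831 to 2911 CPM in ORX and 28.7 to 40.2 CPM in Intact samples, and their part in the rise of Akr1c13 was not tested. The count of 3 was 2 without ORX 2, without Intact 1, 2 or 5, and with the adipose or medulla marker score as a covariate.

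Akr1cl, a gene close to the Akr1c family in sequence (chromosome 1, 65012689 to 65032759, minus strand), was measured at 2884, 2310, 1095, 1791, 2294 and 2722 CPM in ORX samples 1 to 6, against 411, 493, 1183, 1020 and 468 CPM in Intact samples 1 to 5. All ORX samples but ORX 3 lay above all Intact samples, and Intact 3 and 4 were the Intact samples nearest to the ORX range. These are the same 2 Intact samples that were low in Akr1b7, and ORX 3 was the ORX sample highest in Akr1b7. Means were 2183 ± 656 CPM in ORX and 715 ± 359 CPM in Intact samples (SD), a log2 fold change of 1.61 ± 0.33 (SE; edgeR adjusted p = 0.0136). It was 1.46 to 1.86 with each sample left out in turn, past the threshold each time, and 0.93 when the medulla score was added to the model, where it did not pass (edgeR adjusted p = 0.240). Akr1cl overlaps the predicted gene Gm8550 on the opposite strand, which holds 10.4% of its 50-base stretches and was not analysed here. Its highest coding identity to a gene of the cluster was 77.6%, to Akr1c18, with which it shares 7 stretches of 50 bases.

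Akr1c14, a 3α-hydroxysteroid dehydrogenase that reduces 5α-reduced steroids such as dihydrotestosterone at their 3-keto group, was measured at 1.795, 1.95, 4.497, 3.35, 4.004 and 2.49 CPM in ORX samples 1 to 6, against 0.583, 1.70, 1.99, 1.09 and 1.36 CPM in Intact samples 1 to 5. ORX 1 and 2 lay within the Intact range and the other 4 above it. The log2 fold change was 1.15 ± 0.36 (SE; edgeR adjusted p = 0.0719), not past the threshold, with 8 to 61 counts behind each value. It passed with DESeq2 (log2 1.16, DESeq2 adjusted p = 0.0230) and with limma voom (log2 1.29, limma adjusted p = 0.0357). Among the genes with the highest within-group r over 11 libraries were Matn2 (0.92), Omd (0.89), Ppargc1a (0.88) and Pitpnb (0.85), as a description.

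Akr1c19, Akr1c20 and Akr1c21 were near the detection limit. Akr1c19 had 2, 5, 2, 1, 0 and 5 counts in ORX samples 1 to 6, against 0, 2, 4, 1 and 1 in Intact samples 1 to 5. Akr1c20 summed to 7 counts over ORX and 3 over Intact samples, and Akr1c21, a 17α-hydroxysteroid dehydrogenase, to 2 counts in each group. Of the 5 genes below the filter none reached 0.65 CPM in any sample, and no difference could be detected at this depth.

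Per kilobase of exon, Akr1b7 averaged 880 ± 744 CPM in ORX and 4297 ± 3151 CPM in Intact samples (SD), the highest of the 10 genes in both groups. Akr1cl followed at 519 ± 156 and 170 ± 85.2 CPM per kilobase in ORX and Intact samples, Akr1b8 at 95.7 ± 29.2 and 75.4 ± 39.9, Akr1c13 at 26.0 ± 9.52 and 7.93 ± 2.18, and Akr1c14 at 0.930 ± 0.344 and 0.415 ± 0.168 in the same order. The order of the means was the same in both groups. Among these 5 genes, neighbours whose ranges overlapped were Akr1b7 and Akr1cl in ORX (119 to 1844 and 260 to 685 CPM per kilobase) and Akr1cl and Akr1b8 in Intact samples (97.5 to 281 and 29.7 to 135 CPM per kilobase). The ranges of Akr1c14 and Akr1c12 overlapped in Intact but not in ORX samples, and those of Akr1c12 and Akr1c20, and of Akr1c20, Akr1c19 and Akr1c21, overlapped in both groups. In ORX the levels of Akr1cl and Akr1b8 did not overlap, and neither did those of Akr1b7 and Akr1cl in Intact samples.

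Transcript stretches shared with other genes bear on how far each count belongs to its own gene, and at 50 bases their share was largest for the copy pair, while at 100 bases Akr1b3 shared 10.8%, more than Akr1c13 at 9.36%.

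**Figure D3:**
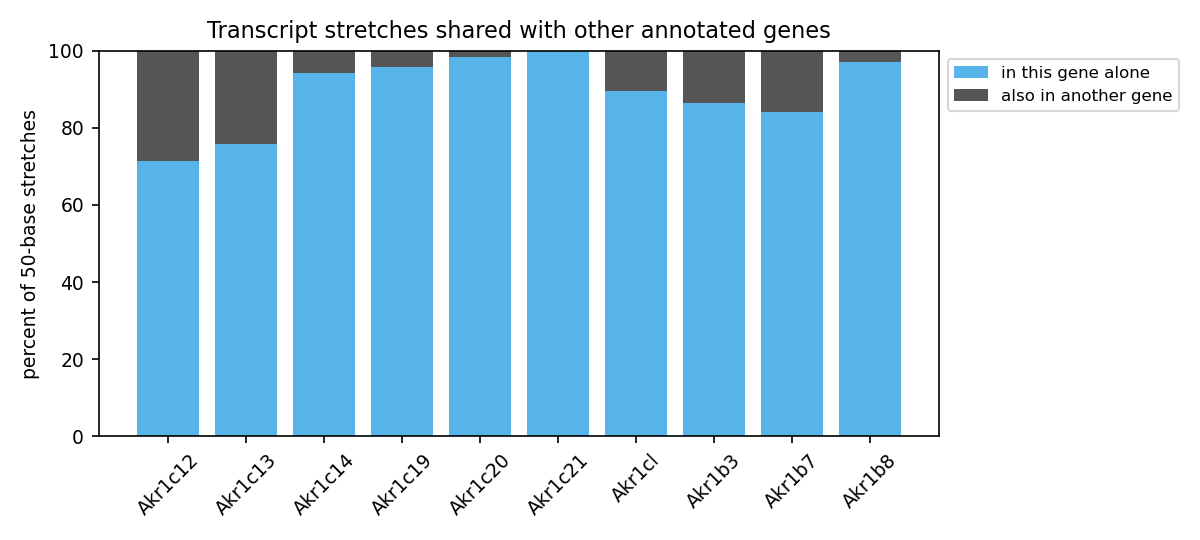
Percent of the distinct 50-base stretches in the GENCODE M21 transcripts of each of the 10 genes (horizontal axis) that occur in that gene alone (blue) or also in another annotated gene (grey). Akr1c12 (28.6%) and Akr1c13 (24.2%) share most, and Akr1c21 shares none.

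Of 9 other tested aldo-keto reductase genes 2 rose and 0 fell: Akr1c18 (log2 fold change 9.02 ± 0.74, edgeR adjusted p = 1.92e-05) and the steroid 5β-reductase Akr1d1 (9.04 ± 0.74, edgeR adjusted p = 1.92e-05). Akr1b10 averaged 20.2 CPM per kilobase in ORX and 35.5 in Intact samples (log2 fold change -0.81 ± 0.31, edgeR adjusted p = 0.134) and did not pass. Akr1c6, a 17β-hydroxysteroid dehydrogenase of liver, was below the filter, with 36 of its 56 ORX counts in ORX 6, the sample with the highest level of the liver gene Alb, at 179 CPM. The 6 liver markers summed to 166 to 2371 CPM in ORX and 481 to 1781 CPM in Intact samples, and 0 of the 5 tested passed. Without Intact 3, 4 of the other aldo-keto reductase genes were higher, and 0 of the liver markers. The median log2 fold change of the 9 genes was 0.25, against 0.01 over all tested genes.

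In the prostaglandin list, 2 of 24 tested genes rose and 0 fell, with a median log2 fold change of -0.20, and 2 genes were lower without ORX 3 or without ORX 6. The clear rise was 2810405K02Rik, the older symbol of Prxl2b, which encodes prostamide and prostaglandin F synthase, an enzyme outside the aldo-keto reductases that makes the same prostaglandin as Akr1b7. It was measured at 122, 73.3, 48.9, 63.1, 111 and 154 CPM in ORX samples 1 to 6, against 14.7, 17.5, 25.6, 15.9 and 11.4 CPM in Intact samples 1 to 5. The groups did not overlap, and the log2 fold change was 2.49 ± 0.31 (SE; edgeR adjusted p = 0.000533), past the threshold without each sample in turn. Tbxas1, the thromboxane synthase, averaged 6.55 ± 2.08 CPM in ORX and 3.30 ± 0.818 CPM in Intact samples (log2 fold change 0.99 ± 0.26, edgeR adjusted p = 0.0417). It passed in 1 of 11 fits with a sample left out, the one without ORX 6, and missed the threshold without ORX 1, 2, 3, 4 or 5 or any Intact sample (highest edgeR adjusted p = 0.110).

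In the list of ACTH signalling and side-chain cleavage, 2 of 15 tested genes rose and 1 fell (median log2 fold change 0.03). Mc2r, the ACTH receptor, averaged 512 ± 80.1 CPM in ORX and 239 ± 62.3 CPM in Intact samples (log2 fold change 1.10 ± 0.19, edgeR adjusted p = 0.00530). Pde8b, a phosphodiesterase that breaks down the cAMP made after ACTH, averaged 80.4 ± 19.8 CPM in ORX and 36.1 ± 9.90 CPM in Intact samples (1.15 ± 0.22, edgeR adjusted p = 0.00951). Prkar2b, a regulatory subunit of protein kinase A, fell by 1.01 on the log2 scale (SE 0.24, edgeR adjusted p = 0.0251), and missed the threshold without ORX 1, ORX 4 or Intact 5. Cyp11a1 had 4422, 4287, 5474, 3518, 7185 and 10234 CPM in ORX samples 1 to 6, against 9214, 13237, 5028, 5823 and 9906 CPM in Intact samples 1 to 5, and did not pass.

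Of the 18 NRF2 target and aldehyde detoxification genes, 2 rose and 3 fell (median log2 fold change 0.10). Aldh2, the mitochondrial aldehyde dehydrogenase, had 1954 to 2239 CPM in ORX and 920 to 1204 CPM in Intact samples (log2 fold change 1.02 ± 0.14, edgeR adjusted p = 0.00119). Mgst1, a microsomal glutathione transferase, rose by 1.01 ± 0.20 (edgeR adjusted p = 0.00973). Hmox1, heme oxygenase, fell by 1.36 (SE 0.26, edgeR adjusted p = 0.00761). Aldh1a1, a cytosolic retinal dehydrogenase, fell by 1.64 (SE 0.38, edgeR adjusted p = 0.0235) and missed the threshold without ORX 5, Intact 2 or Intact 5. Gclc, the catalytic subunit of glutathione synthesis, named after its value was seen, fell by 1.59 (SE 0.41, edgeR adjusted p = 0.0381) and passed in 3 of 11 fits with a sample left out, those without ORX 3, Intact 3 or Intact 4.

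Of 13 tested genes that reduce or oxidize keto groups of steroids, 3 rose and 2 fell (median log2 fold change 0.13). Srd5a1, the 5α-reductase that makes the substrates of Akr1c14, had 37.1, 53.5, 31.4, 24.4, 34.2 and 38.4 CPM in ORX samples 1 to 6, against 11.3, 12.7, 14.5, 12.6 and 13.2 CPM in Intact samples 1 to 5, without overlap (log2 fold change 1.505 ± 0.188, edgeR adjusted p = 0.000533). Srd5a3, known for making the lipid carrier of protein glycosylation, rose by 0.71 ± 0.14 (edgeR adjusted p = 0.00970). Srd5a2, the 5α-reductase of the male reproductive tract, named after its value was seen, fell by 0.89 (SE 0.25, edgeR adjusted p = 0.0477) and passed in 2 of 11 fits with a sample left out, those without ORX 3 or Intact 3. Hsd17b1, which makes estradiol, rose by 1.22 ± 0.31 (edgeR adjusted p = 0.0363) and passed in 3 of 11 fits, those without ORX 3, Intact 3 or Intact 4. Dhrs9, a retinol and 3α-hydroxysteroid dehydrogenase, fell by 2.55 (SE 0.60, edgeR adjusted p = 0.0251) at a mean of 0.405 CPM in ORX and 2.37 CPM in Intact samples, missed the threshold without ORX 1, ORX 2 or Intact 5, and was below the filter without ORX 5.

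In the polyol and tonicity list, which surrounds Akr1b3, 1 of 7 tested genes rose and 1 fell (median log2 fold change -0.17). Slc6a6, the taurine transporter, rose by 1.27 ± 0.30 (edgeR adjusted p = 0.0274) and missed the threshold without ORX 1, 2, 4 or 5 or Intact 1, 2 or 5. Hspa4l, a tonicity-induced chaperone, fell by 1.27 (SE 0.30, edgeR adjusted p = 0.0261) and missed it without ORX 1, 2 or 4 or Intact 2 or 5. Without ORX 3, Intact 3 or Intact 4, 2 genes of this list were lower. With the medulla score in the model 2810405K02Rik, Aldh2 and Srd5a1 kept their calls and the 14 other genes named from these 5 lists missed the threshold, but their fold changes moved in different ways. The log2 fold change was as large or larger for Mc2r (1.24), Pde8b (1.25), Prkar2b (-1.14), Tbxas1 (1.06) and Dhrs9 (-2.72). It was smaller for Mgst1 (0.85), Srd5a3 (0.59), Srd5a2 (-0.84), Hspa4l (-1.03), Slc6a6 (0.72), Hsd17b1 (0.72), Aldh1a1 (-0.95), Hmox1 (-0.71) and Gclc (-0.58).

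**Figure D4:**
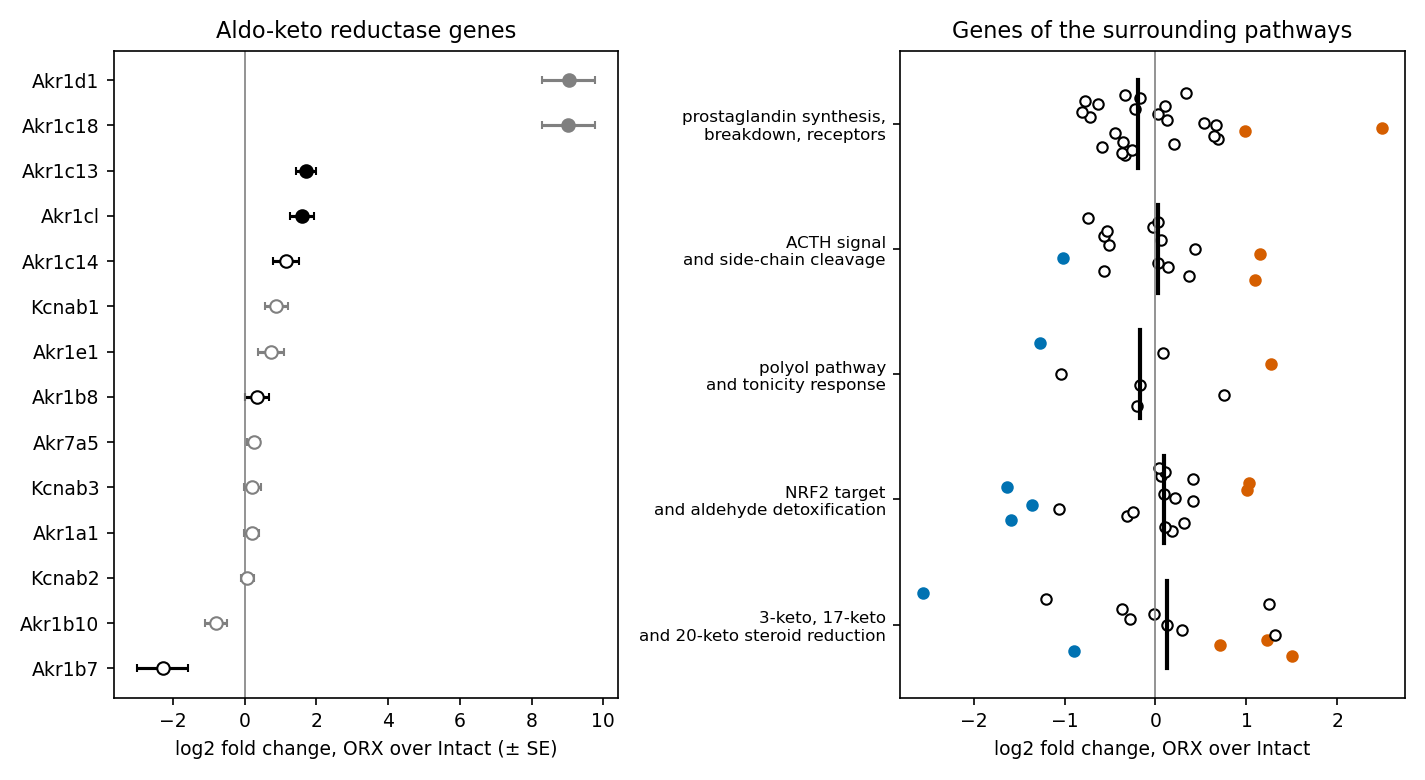
Left, log2 fold change of ORX over Intact (± SE) for the 14 tested aldo-keto reductase genes, the 5 members in black and the others in grey, filled where edgeR's adjusted p is under 0.05; Akr1c13 and Akr1cl are filled and Akr1b7, lowest at -2.29, is open. Right, log2 fold changes of genes of 5 surrounding pathways, orange where higher, blue where lower and open where not past the threshold, with the median of each list as a bar; the orange point farthest right in the prostaglandin list is 2810405K02Rik at 2.49.

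The fold changes of the 5 tested members kept their sign under 22 processing alternatives for Akr1c13 and 21 for each of the others.

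**Figure D5:**
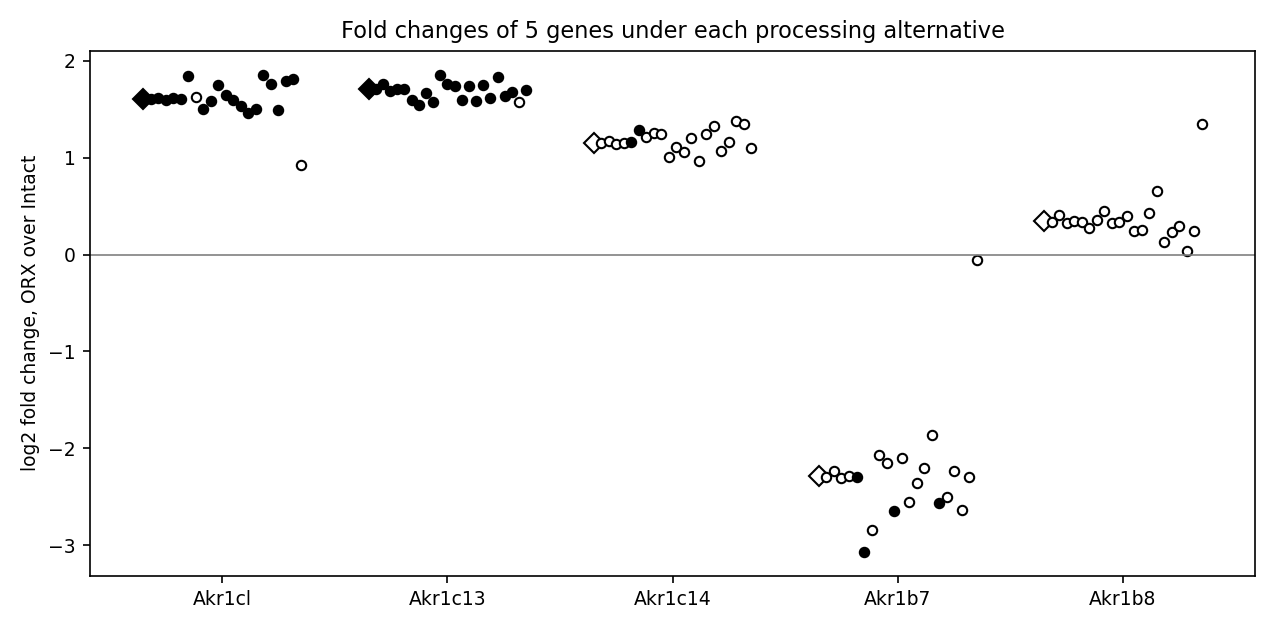
Log2 fold change of ORX over Intact for 5 genes as reported (diamond) and under each alternative of scaling, filter, test, block, covariate or left-out sample (circles), filled where the adjusted p is under 0.05. Akr1c13 and Akr1cl stay above 0, and the Akr1b7 circle near 0 is the fit when the medulla score was added to the model (-0.06).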

How the data were processed

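RNA was sequenced from 11 adrenal samples, 6 ORX and 5 Intact, grouped by the labels. The deposited table holds integer counts of reads for each gene symbol, with totals that differ between libraries and no sign of normalization by the authors. Per the submitters' processing notes, mm10 was the genome build, and Subread 1.5.1 and bcl2fastq 1.8.4 were among the tools. Library preparation began with 300 ng of RNA. The labels' protocols name both a stranded and an unstranded TruSeq guide, so the strand setting, like the annotation and the treatment of reads with several matches, is not given in the sources used here. Of 2 identical copies in the deposited file, the first was used (18746 of 23337 symbols had a count, 0 rows lacked a name). The labels number the samples but do not say that each is a separate mouse, so p-values reflect sample-to-sample spread, part of which may be technical. No pair of libraries matched within sampling noise (chi-square over its degrees of freedom at least 22.2 within groups).

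Genes were filtered with filterByExpr (minimum count 10, total 15), which kept 99.9% of counts, and tested with edgeR 4.0.16 (R 4.3.3; glmQLFit, glmQLFTest, TMM, two-sided, Benjamini-Hochberg over 14139 genes, threshold 0.05; biological coefficient of variation 30.2%). Standard errors come from each fold change and the F value of its test. Alternatives used DESeq2 1.42.0, limma 3.58.1, other scalings and filters, a block, covariates and left-out samples. The fit was tested on simulated data. Exact permutation tests used scipy 1.17.1, and within-group r used log2 CPM with a prior count of 2. Positions, transcript stretches and coding identities came from GENCODE M21 (GRCm38, also called mm10; Biopython 1.88), matched by symbol, and promoters from RefSeq. In the lists, 3 symbols were matched under older names. The members and lists were chosen with earlier results of these data known. Genes named were all members, from each list the 4 genes, or fewer, with the lowest p of those that passed, and the 5 genes most alike in pattern to Akr1b7 and Akr1c14; others are marked as chosen after their values were seen. A gene that this rule names is not reported here.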

Additional observations from a re-analysis of the deposited data

Results flagged for a closer look

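Hmox1, heme oxygenase, was measured at 128 CPM in ORX 6, against 41.1 to 70.2 CPM in the other 5 ORX samples, a gap that set this sample apart from its group. It was 1 of 52 groups of values examined, and chance sets apart about 1 in 20. The log2 fold change of Hmox1 passed the threshold with each sample left out, ORX 6 included.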

How the results depend on the processing

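No result reversed. The count of genes past the threshold, 878, was 1737 with DESeq2, 2056 with limma voom, 416 with the replicate block and 127 with the medulla score as a covariate, and 408 to 1280 with each sample left out. Members higher in ORX numbered 2, 1 with the block and 0 with the medulla score, and 2 with each sample left out; members lower numbered 0, 1 with DESeq2, 1 with limma voom, and 0 to 1 with a sample left out. The log2 fold change of Akr1c13 was 1.57 with the medulla score (edgeR adjusted p = 0.116); that of Akr1cl was 0.93 with it (edgeR adjusted p = 0.240) and 1.63 with the block (edgeR adjusted p = 0.0937). Akr1c14 passed with DESeq2 (1.16) and limma voom (1.29), as did Akr1b7 (-2.30 and -3.07), which ran between -2.65 and -1.86 with a sample left out; the cause was not tested. Akr1c14 ran between 0.96 and 1.33, Akr1b8 between 0.13 and 0.66, the share of Akr1c12 between -1.15 and -0.42 percentage points, and the log2 ratio of Akr1b7 to Cyp11a1 between -2.26 and -1.53 (exact permutation p 0.0159 to 0.0476) with a sample left out. Of the checks on single list genes and list counts, 911 kept their call or size and 85 lost the call. The other 115 were counts that moved by over 1.5 times, or to or from 0. The 911 include counts that stayed at 0, as in lists with no gene past the threshold, so they do not measure robustness.

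No clear pairing by replicate number was seen: the correlation of same-numbered ORX and Intact deviations ran from -0.28 to 0.18 over 5 pairs, and ORX 4 and 5 alone matched their own number best. So few correlations of whole glands cannot exclude a pairing. For members at a few counts no difference was detectable at this depth.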

Other observations

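For Akr1cl and Akr1c13 the genes of most similar pattern within groups were listed after their values were seen, over 11 libraries and 13727 genes, as a description. Akr1cl was most like 1700034H14Rik (Pearson r 0.97), Tmem175 (0.96), Gm20300 (0.96), Sirt5 (0.96) and Inpp5k (0.95), of which Inpp5k rose in ORX (log2 fold change 0.79, edgeR adjusted p = 0.0447). Akr1c13 was most like Xrcc6bp1 (0.90), A930024E05Rik (0.90), Galk2 (0.89), Naglu (0.89) and Dpp3 (0.88), of which Naglu rose in ORX (log2 fold change 0.59, edgeR adjusted p = 0.0299). The r of Akr1cl with the X-zone gene Akr1c18 was -0.34 and that of Akr1c13 was -0.10. With the X-zone gene Pik3c2g the signs were opposite, at 0.17 for Akr1cl and 0.31 for Akr1c13. With Akr1d1 the r was -0.29 for Akr1cl and 0.06 for Akr1c13.

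Ptgs2, the inducible cyclooxygenase that begins prostaglandin synthesis, had 2.80, 15.6, 38.2, 7.38, 3.20 and 5.35 CPM in ORX samples 1 to 6, against 49.4, 17.6, 0.530, 1.51 and 3.49 CPM in Intact samples 1 to 5. ORX 3 and Intact 1 were the highest of their groups and ORX 1 and Intact 3 the lowest. The order of samples followed that of Akr1b7 in part: ORX 5 and 6, next to ORX 3 in Akr1b7, lay below ORX 2 and 4 in Ptgs2. Ptgs2 was picked after its values were seen and did not pass the test between groups.

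Capsule and stroma (0 of 9), endothelium (0 of 6) and testis (0 of 2 tested) markers had no gene past the threshold, and of 7 macrophage markers 1, Cd14, fell. The median log2 fold change was -0.55 for stroma, equal to that of the medulla list (-0.55), and -0.23 for endothelium. Without ORX 3, 3 stroma and 2 endothelium markers were lower in ORX; 1 stroma marker was lower without Intact 4 and 1 endothelium marker without Intact 3. Kidney markers reached at most 13 counts, with Umod at 0 in all samples. Their summed levels ran from 548 to 1569 CPM in ORX and 802 to 1473 CPM in Intact samples for stroma, 584 to 792 CPM and 579 to 957 CPM for endothelium, and 352 to 749 CPM and 276 to 611 CPM for macrophages, in the same order of groups.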
